A study of Mus musculus with 8 samples.

Results

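The astrocyte endfoot water channel complex was followed as 9 genes (Aqp4, Dag1, Dmd, Dtna, Mlc1, Hepacam, Gja1, Gjb6 and Atp1b2) out of 17983 gene symbols in brain RNA of db/db mice. The genes were selected on their known role at the astrocyte endfoot with the diet values of these same libraries already known, so their difference between diets is given as a description, with no p-value. All 9 were found in the tables and all 9 passed the filter on low counts. The libraries came from male db/db mice, which carry a mutation of the leptin receptor gene and become obese and diabetic. Both groups share that genotype, and no mouse without the mutation entered the comparison. The control group of 4 libraries was on a normal diet and the ketogenic group of 4 on a ketogenic diet (KD), which is rich in fat and very low in carbohydrate. Per the series description, feeding ran from 9 weeks of age and the whole brain was taken at 6 months. The labels do not say whether each library is 1 mouse, so the spread between libraries may be technical.

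An astrocyte endfoot is the flattened end of an astrocyte process that wraps a brain vessel. Its membrane holds arrays of aquaporin 4, a water channel that is tied through adaptor proteins and dystrobrevin to dystrophin, and through dystroglycan to the laminin and agrin of the vessel's basement membrane. MLC1 and its partner GlialCAM (gene Hepacam) sit at the contacts between endfeet, where connexins join astrocytes into a network and the sodium pump keeps the ion gradients. Loss of Aqp4 in mice is known to slow the movement of water between vessel and tissue, and mutations in MLC1 or HEPACAM cause a leukodystrophy with a swollen brain.

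Total counts ran from 34450860 to 40233361 per library. On the first principal component control libraries ran from -22.7 to -5.94 and ketogenic libraries from 2.90 to 34.4, with no overlap. Ketogenic replicate 3 lay farthest from the rest on it, at 34.4 against -22.7 to 11.2 for the other 7 libraries. Astrocyte genes were present at high levels, with the glutamate transporter gene Slc1a2 at 2808 ± 244 CPM (SD, n = 4) in control libraries. A CPM value (a count on a common scale) is a read count divided by the library total, itself adjusted by TMM, the trimmed mean of M values. A gene is said to pass when its adjusted p is under 0.05 in edgeR's quasi-likelihood test over the 14895 genes kept. Of these, 971 passed, or 6.52% (3.22% lower and 3.30% higher in ketogenic libraries).

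The members lie apart in the genome. On GRCm38, with GENCODE gene bounds, Aqp4 is at chromosome 18, 15389496 to 15410982, and Dtna on the same chromosome at 23415135 to 23659715. Dag1 is at chromosome 9, 108204634 to 108263958, and Hepacam at 37367351 to 37386575 of the same chromosome. Dmd spans 82948870 to 85206141 of chromosome X. Mlc1 is at chromosome 15, 88955884 to 88979007, and Atp1b2 at chromosome 11, 69599736 to 69605942. Gja1 is at chromosome 10, 56377330 to 56402513, and Gjb6 at chromosome 14, 57123303 to 57133611. Counts are given by gene symbol, so exons and UTRs are not told apart. Dtna shares 90 exon bases with an antisense gene, Gm47898, and the counting's use of strand is not given in the sources used here. No other member shares exon bases with an annotated gene.

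Per length, the members differed widely in level. In control libraries the order by the authors' FPKM (counts scaled to gene length and library total) was Atp1b2 at 219.8 ± 19.7, Gja1 at 75.1 ± 5.78, Mlc1 at 49.3 ± 3.26, Hepacam at 39.8 ± 3.99, Dag1 at 23.4 ± 1.12, Aqp4 at 21.6 ± 0.67, Dtna at 19.4 ± 0.63, Gjb6 at 16.7 ± 1.43 and Dmd at 3.02 ± 0.18 (SD, n = 4 each). The ranges of neighbours in that order overlapped only for Dag1 and Aqp4. In ketogenic libraries Aqp4 stood at 14.9 ± 1.62 FPKM, eighth instead of sixth, behind Gjb6 at 19.3 ± 1.98 and Dtna at 18.2 ± 0.91, whose ranges overlapped each other. The order of the other members was as in control libraries. The length behind the Dmd value is 21485 bases, which the authors' FPKM implies, while the glial product of this gene, Dp71, comes from an internal promoter and is much shorter than full-length dystrophin. The level of Dmd per length is therefore not that of 1 transcript.

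The water channel gene itself was lower in ketogenic brains. Aqp4 stood at 130.3, 128.9, 136.2 and 124.7 CPM in control replicates 1 to 4 and at 98.4, 79.1, 84.7 and 96.2 CPM in ketogenic replicates 1 to 4. Every ketogenic library was below every control library, and the spread was wider on the ketogenic side (SD 9.22 against 4.77 CPM). The log2 change was -0.54 ± 0.07 (SE), or 1.45-fold lower. With 1 library left out at a time it stayed between -0.59 and -0.48. It was -0.51 with the length trend of each library removed and -0.42 with the trends on GC content and length removed. In bulk tissue, fewer astrocytes or endfeet and less RNA per astrocyte cannot be told apart.

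**Figure D1:**
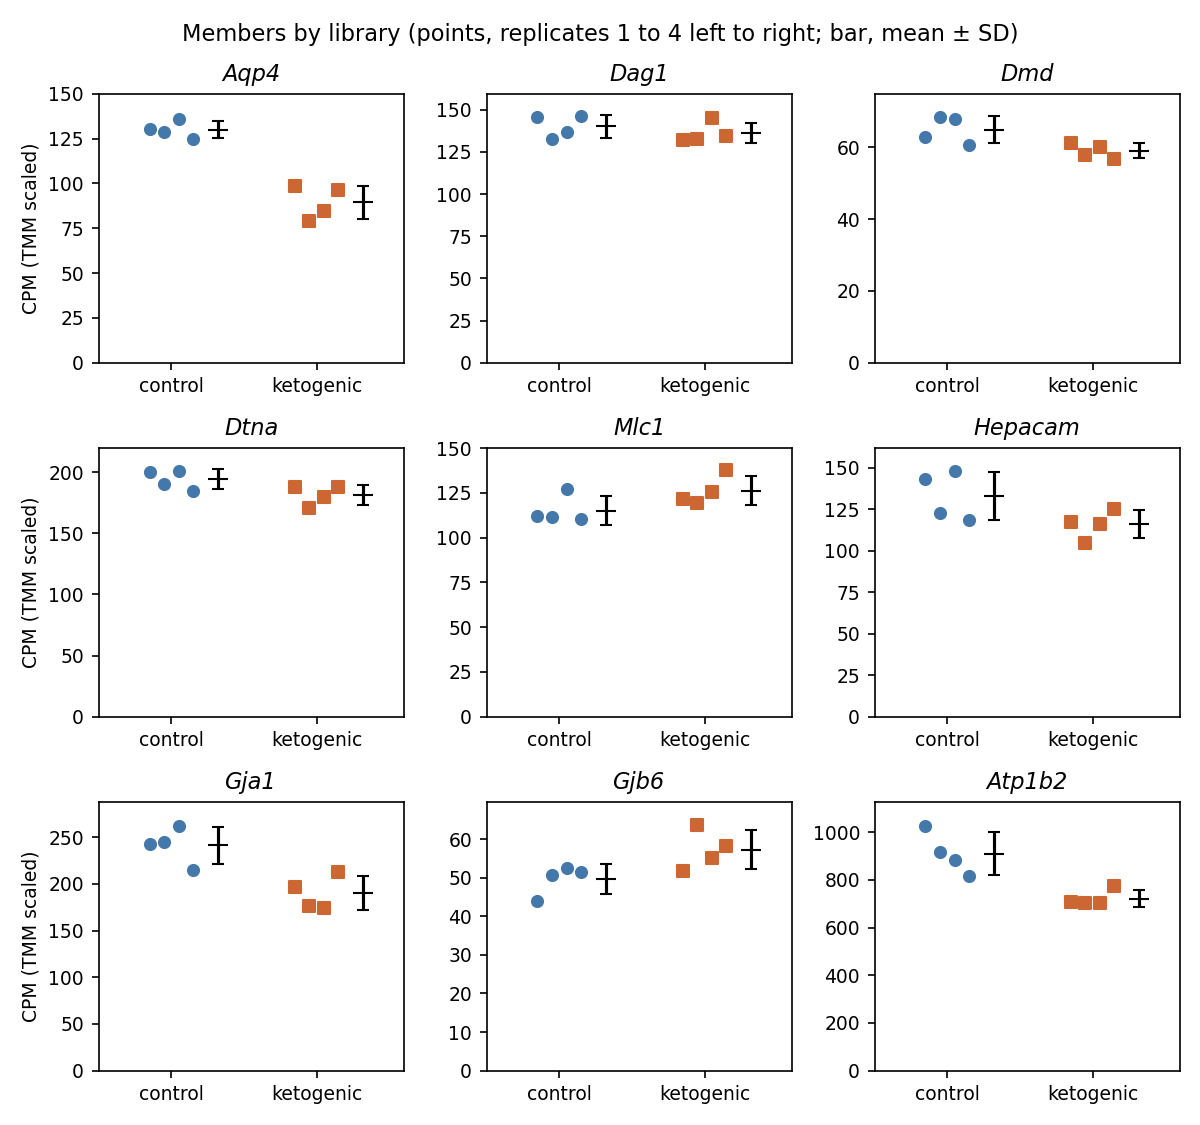
CPM of each member in the 4 control (circles) and 4 ketogenic (squares) libraries, replicates 1 to 4 from left to right, with the mean and SD beside them; each axis starts at 0. Aqp4, Gja1 and Atp1b2 do not overlap between diets, and the other 6 genes do.

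The genes of the dystrophin anchor were nearer to their control levels in whole-brain RNA, which does not tell endfeet from other cells. Dag1, which encodes both subunits of dystroglycan, the link to the basement membrane, was at 145.7, 132.5, 136.9 and 146.1 CPM in the control and 132.3, 132.6, 144.9 and 134.5 CPM in the ketogenic libraries. The groups overlapped nearly throughout, with a log2 change of -0.04 ± 0.05 (SE), from -0.08 to -0.01 over the alternatives. Dmd, which encodes dystrophin, was at 62.8, 68.5, 67.9 and 60.5 CPM in the control and 61.2, 57.9, 60.2 and 56.7 CPM in the ketogenic libraries. Of its ketogenic values 3 lay below all control values, and the log2 change was -0.14 ± 0.06. It was -0.08 with the length trend of each library removed and -0.02 with the trends on GC content and length removed. Dtna, which encodes alpha-dystrobrevin, ran from 184.6 to 201.2 CPM in the control and from 170.6 to 188.0 CPM in the ketogenic libraries, with a log2 change of -0.10 ± 0.05 (-0.06 and -0.04 with the same trends removed). None of these 3 genes passed.

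The MLC1 and GlialCAM genes, whose proteins bind each other, differed between diets in opposite directions, and neither passed. Mlc1 was at 111.8, 111.4, 127.0 and 110.2 CPM in the control and 121.5, 119.5, 125.6 and 137.6 CPM in the ketogenic libraries, a log2 change of 0.13 ± 0.06 (SE). Without control replicate 3, the one control library as high as the ketogenic ones, all ketogenic values lay above all control values. The Mlc1 log2 change was 0.09 without ketogenic replicate 4 and 0.07 without ketogenic replicates 3 and 4. Hepacam was at 143.2, 122.8, 148.1 and 118.8 CPM in the control and 117.2, 104.7, 116.4 and 125.4 CPM in the ketogenic libraries, a log2 change of -0.20 ± 0.07, with control replicates 2 and 4 within the ketogenic range. Within each library, the ratio of Mlc1 FPKM to Hepacam FPKM was 1.12, 1.30, 1.23 and 1.33 in control and 1.49, 1.64, 1.55 and 1.57 in ketogenic libraries. The ratio did not overlap between diets. Both genes were picked with the diet values known, and the share of other gene pairs without overlap was not computed. The lack of overlap therefore supports nothing by itself. As a description, the ratio shows an unequal difference of the 2 genes and not which of them moved.

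The astrocyte connexin genes also went apart. Gja1, which encodes connexin 43, the main gap junction protein of astrocytes, was at 242.9, 245.2, 262.3 and 214.3 CPM in the control and 197.0, 176.7, 173.8 and 213.2 CPM in the ketogenic libraries. The groups did not overlap, though control replicate 4 and ketogenic replicate 4 were close. The log2 change was -0.34 ± 0.07 (SE), or 1.27-fold lower. It was -0.33 with the length trend removed and -0.25 with the trends on GC content and length removed. Gjb6, which encodes connexin 30, was at 43.9, 50.7, 52.6 and 51.5 CPM in the control and 51.8, 63.6, 55.2 and 58.3 CPM in the ketogenic libraries. Its log2 change was 0.20 ± 0.08, it did not pass, and ketogenic replicate 1 lay within the control range. The ratio of Gja1 FPKM to Gjb6 FPKM was 5.14, 4.49, 4.63 and 3.86 in control libraries. In ketogenic libraries it was 3.53, 2.58, 2.92 and 3.40, with no overlap. The limit given for the ratio of Mlc1 to Hepacam holds for this ratio too.

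**Figure D2:**
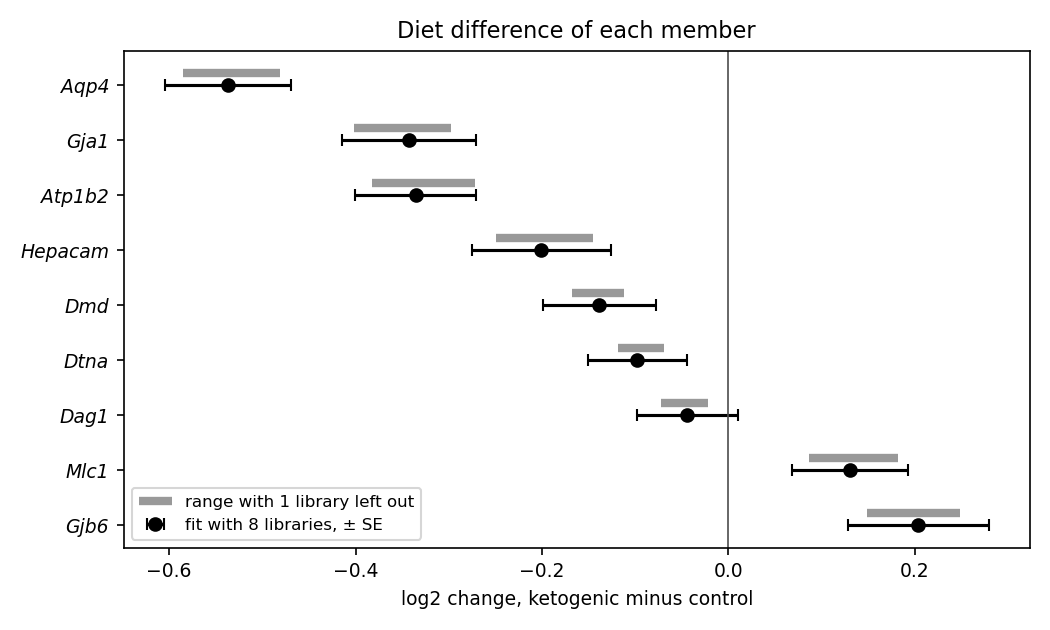
Log2 change of each member between ketogenic and control libraries (points, with the SE of the fit) and the range of that value when 1 of the 8 libraries is left out (grey bars). Aqp4 is lowest at -0.54 and Gjb6 highest at 0.20, and no grey bar crosses 0.

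The stretch before the start of both connexin genes is shown because they differed in opposite directions. It is taken from a set of promoters at RefSeq starts on GRCm38.p6. The set used here holds a promoter for 6 of the 9 members, which is a limit of that set and not of RefSeq. Each is 250 bases, read 5′ to 3′ on the gene's strand and ending at the base before the RefSeq start. For Gjb6 this is also the GENCODE start, and for Gja1 it lies upstream of the GENCODE start given above. Capitals mark matches on either strand to an AP-1 motif (TGANTCA) or an E-box (CANNTG). Gja1 lies on the plus strand, at chr10:56377050-56377299, and Gjb6 on the minus strand, at chr14:57133612-57133861.
Gja1: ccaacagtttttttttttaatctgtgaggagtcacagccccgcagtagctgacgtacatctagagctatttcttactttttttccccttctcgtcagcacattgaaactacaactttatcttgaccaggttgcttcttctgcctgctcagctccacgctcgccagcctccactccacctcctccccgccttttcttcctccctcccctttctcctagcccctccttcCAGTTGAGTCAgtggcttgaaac
Gjb6: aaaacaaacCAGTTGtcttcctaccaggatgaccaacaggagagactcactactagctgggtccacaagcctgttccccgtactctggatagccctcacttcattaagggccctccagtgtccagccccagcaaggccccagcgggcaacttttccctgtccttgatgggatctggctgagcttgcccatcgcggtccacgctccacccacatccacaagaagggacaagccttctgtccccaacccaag
Gja1 had 1 AP-1 match, starting 19 bases before the RefSeq start, and 1 E-box match, 23 bases before it, which overlaps the AP-1 match. Gjb6 had 1 E-box match, 241 bases before its start, and no AP-1 match. Of 32851 such windows in that set of promoters, 6.75% held an AP-1 match and 66.2% an E-box. The core of the NFI motif (TTGGCA, in 12.3% of windows), a TATA box (TATAAA, 12.4%) and a GC box (GGGCGG, 32.7%) were searched on both strands too and matched in neither gene. A match is only a run of letters and shows no binding.

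The sodium pump subunit gene Atp1b2 was the most abundant member and was lower in ketogenic libraries. It encodes the beta-2 subunit, also known as the adhesion molecule on glia, which pairs with a catalytic alpha subunit. It was at 1028, 917.7, 881.6 and 815.3 CPM in the control and 705.5, 703.5, 702.3 and 775.7 CPM in the ketogenic libraries. The groups did not overlap, 3 ketogenic libraries were nearly equal, and the log2 change was -0.34 ± 0.07 (SE), or 1.26-fold lower. It was -0.32 with the length trend removed and -0.36 with the trends on GC content and length removed.

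Of the 9 members, 3 passed (Aqp4, Gja1 and Atp1b2), all lower, where 3.22% of all genes tested were called lower, and 0 passed as higher, where 3.30% were. The CPM of the groups did not overlap in the same 3 members, against 13.7% of all genes tested. The members' median log2 change was -0.14 and that of all genes tested was -0.0029. Of the 9 members 7 were below 0, against 7549 of all 14895 genes tested and 12 of the 16 astrocyte markers described below. The members' counts describe genes picked with the diet values known and support nothing by themselves. The count of 3 was the same without ketogenic replicate 3, the library farthest from the rest, and without ketogenic replicates 3 and 4 together. Gja1 no longer passed when control replicate 1, 2 or 3 or ketogenic replicate 2 was left out, or with the trend of each library on GC content and length removed. Hepacam passed as lower without control replicate 4.

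As a mean, markers of astrocytes that are not members differed less between diets than Aqp4, Gja1 or Atp1b2. That mean joins 12 genes with a log2 change below 0 and 4 above 0. Over 16 astrocyte markers the mean log2 CPM was 7.42, 7.35, 7.46 and 7.31 in control and 7.29, 7.31, 7.31 and 7.41 in ketogenic libraries, a difference of -0.06 (exact two-sided permutation p = 0.2, adjusted p = 0.536 over 10 marker lists). Ketogenic replicate 4 had the highest astrocyte marker level of its group, and also the highest Atp1b2, Gja1, Hepacam and Mlc1. Of the 16 markers 2 fell, 1 rose and 13 did not pass. The share that passed was 18.75%, against 6.52% of all genes tested. Gfap, the intermediate filament gene of astrocytes, fell from 263.5 ± 28.4 to 220.2 ± 11.3 CPM (SD, n = 4 each), with a log2 change of -0.26 ± 0.07 and an edgeR adjusted p of 0.0398. Aldh1l1, a folate enzyme gene used as an astrocyte marker, fell from 63.9 ± 3.20 to 54.2 ± 3.53 CPM (edgeR adjusted p = 0.0386). The Gfap groups overlapped. With 1 library left out, Gfap no longer passed except without control replicate 4 or ketogenic replicate 4, and Aldh1l1 passed in no such fit (adjusted p up to 0.142 and 0.196 over 20 alternatives). The receptor gene Fgfr3, named after its values were seen, rose from 80.0 ± 7.02 to 100.8 ± 8.81 CPM (edgeR adjusted p = 0.019). The glutamate transporter genes Slc1a2 and Slc1a3 had log2 changes of -0.12 ± 0.07 and -0.05 ± 0.06 and did not pass (edgeR adjusted p = 0.307 and 0.679).

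Set against those markers within each library, 6 of the 9 members did not overlap between diets, where 10.7% of all genes tested did not. The members were picked with the diet values known, so this count supports nothing by itself. Aqp4 minus the marker mean was -0.39, -0.34, -0.37 and -0.35 log2 units in the control and -0.67, -1.001, -0.90 and -0.82 in the ketogenic libraries. The difference between diets on this scale was -0.49 for Aqp4, -0.29 for Gja1, -0.28 for Atp1b2 and -0.14 for Hepacam, and 0.19 for Mlc1 and 0.26 for Gjb6. For Dag1, Dmd and Dtna it was 0.01, -0.08 and -0.04, with overlap. Hepacam, Mlc1 and Gjb6 did not overlap on this scale, though they did in CPM. For Hepacam the gap was very small, with the lowest control value at -0.414 and the highest ketogenic value at -0.416.

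**Figure D3:**
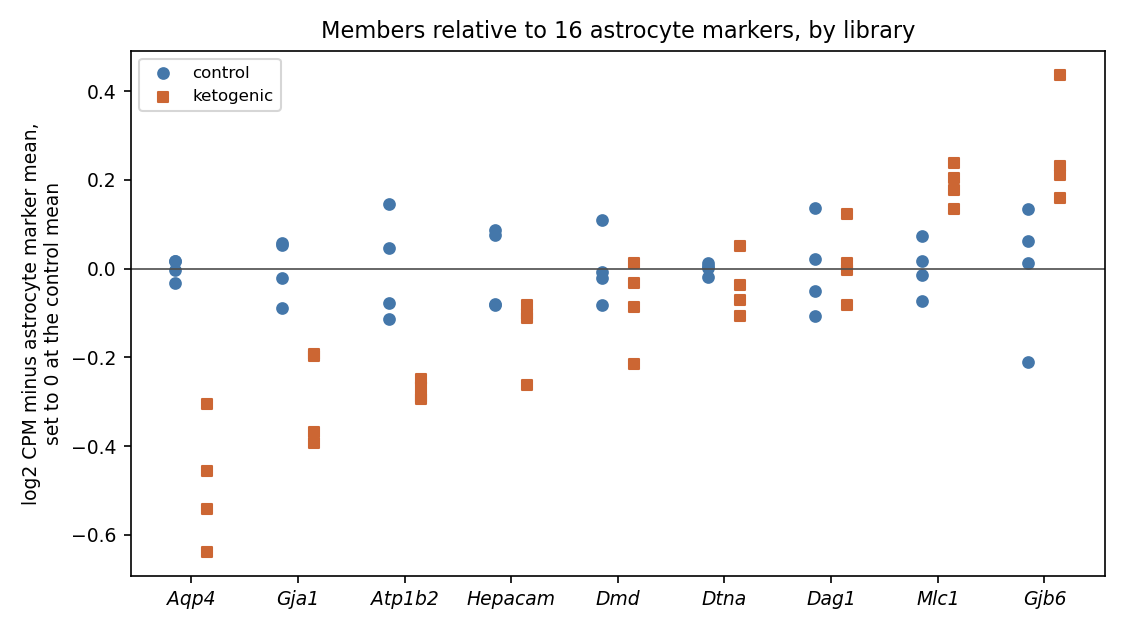
Log2 CPM of each member minus the mean log2 CPM of 16 astrocyte markers in the same library, set to 0 at the control mean (circles, control; squares, ketogenic). The ketogenic Aqp4 values lie clear of the control values, and those of Mlc1 and Gjb6 lie above theirs.

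With 4 libraries a group and 10 lists, no single marker list could have passed, since the smallest exact permutation p that 70 assignments allow is 0.0286 before adjustment. The differences in mean log2 CPM between ketogenic and control libraries were -0.05 for neuron, -0.06 for oligodendrocyte, 0.08 for microglia, 0.08 for endothelial, -0.07 for pericyte, 0.23 for choroid plexus and ependymal, -0.18 for fibroblast and meningeal and -0.16 for cerebellum markers, and 0.11 for genes of reactive astrocytes. The exact permutation adjusted p of each was 0.536 or more, which says nothing of whether the levels differed. Of the 9 cerebellum markers listed, 7 were tested. Their mean log2 CPM was 2.71 in ketogenic replicate 3, against 3.04, 3.28 and 3.475 in ketogenic replicates 1, 2 and 4. Control libraries ran from 3.18 to 3.47. By gene, edgeR called 1 of 10 microglia and 2 of 10 endothelial markers higher, where 3.30% of all genes tested were. It called 1 of 10 neuron, 1 of 10 oligodendrocyte and 1 of 8 pericyte markers lower, where 3.22% of all genes tested were. It called none in the other 4 lists, which had 1 to 3 genes each at an unadjusted p under 0.05, 0 or 1 with DESeq2 and 0 with limma. No member's value was corrected for these levels, and their part in the members' differences was not tested.

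Other genes of the endfoot complex mostly did not pass. Of 69 tested genes in 6 related lists, 2 fell and 0 rose in edgeR, or 2.90% against 6.52% of all genes tested. At an unadjusted p under 0.05 there were 16, 9 of them higher and 7 lower. The DESeq2 Wald test called 6 and limma on log2(FPKM + 1) called 1. The median log2 change of the 69 was 0.01. The lists were drawn up with results of these data known.

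Partners in the dystrophin complex did not pass in any of 14 cases in edgeR (4 at an unadjusted p under 0.05, 1 with DESeq2, 0 with limma), with a median log2 change of -0.05. Utrn, which encodes utrophin, the closest relative of dystrophin, went from 97.7 ± 5.11 to 86.3 ± 3.25 CPM (SD, n = 4 each), with an edgeR adjusted p of 0.0641.

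Enzymes that add the laminin-binding sugar to dystroglycan had 0 of 13 past the threshold in edgeR (1 at an unadjusted p under 0.05, 1 with DESeq2, 0 with limma) and a median log2 change of -0.02. B4gat1, a glucuronyltransferase, was at 98.4 ± 5.96 and 111.0 ± 5.03 CPM in the control and ketogenic libraries (SD, n = 4 each, edgeR adjusted p = 0.0817). Basement membrane genes had 0 of 13 past the threshold (2 at an unadjusted p under 0.05, 0 with DESeq2 and 0 with limma). Of these 13, 10 had a log2 change above 0, with a median of 0.14. Agrn, which encodes agrin, a ligand of dystroglycan, was at 100.3 ± 5.39 and 111.4 ± 6.11 CPM (edgeR adjusted p = 0.122), and Lamb2, a laminin chain gene, at 23.1 ± 1.76 and 25.98 ± 1.04 CPM (0.198).

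Among 11 other ion and water transport genes, 1 fell and 0 rose in edgeR. At an unadjusted p under 0.05 there were 6, 3 higher and 3 lower. DESeq2 called 1 lower and 1 higher, and limma 0. The gene DESeq2 called higher was Trpv4, a cation channel gene named after its values were seen, at 2.33 ± 0.50 and 3.66 ± 0.96 CPM (SD, n = 4 each, edgeR adjusted p = 0.0944), with overlapping groups. Kcnj16, which encodes a potassium channel subunit that pairs with that of Kcnj10, was at 37.2, 33.3, 36.0 and 28.8 CPM in the control and 26.9, 26.7, 24.1 and 26.7 CPM in the ketogenic libraries. The groups did not overlap, with a log2 change of -0.37 ± 0.08 (SE) and an edgeR adjusted p of 0.0212. It no longer passed when control replicate 1, 2 or 3, ketogenic replicate 2, or ketogenic replicates 3 and 4 together were left out, or with the trends on GC content and length removed, and the edgeR, limma or DESeq2 adjusted p ran from 0.00188 to 0.139 over 20 alternatives. Kcnj10, which encodes Kir4.1, the potassium channel of the endfoot, was at 58.6 ± 2.74 and 51.8 ± 2.83 CPM (SD, n = 4 each), with an edgeR adjusted p of 0.0949. The other aquaporin genes of the list did not pass: Aqp1, of the choroid plexus, was at 4.60 ± 0.87 and 6.46 ± 1.33 CPM, Aqp9 at 1.64 ± 0.66 and 0.96 ± 0.25 CPM and Aqp11 at 11.3 ± 1.43 and 11.7 ± 0.62 CPM (edgeR adjusted p = 0.107, 0.187 and 0.798).

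The other sodium pump subunit genes had 0 of 8 past the threshold in edgeR (1 at an unadjusted p under 0.05, 0 with DESeq2 and 0 with limma), with log2 changes from -0.02 to 0.12. The regulator gene Fxyd7 was at 39.4 ± 3.16 and 42.3 ± 1.54 CPM (SD, n = 4 each, edgeR adjusted p = 0.394). Of 10 other connexin and pannexin genes, 1 fell and 0 rose in edgeR, 2 fell with DESeq2 and 1 passed with limma. Gjb2, a connexin 26 gene named after its values were seen, was called by DESeq2 and not by edgeR (12.5 ± 1.54 and 9.61 ± 0.93 CPM, SD, n = 4 each, edgeR adjusted p = 0.0648). The gene that fell in edgeR was Gjb1, which encodes connexin 32 of oligodendrocytes, the cells that astrocyte connexins couple to. Gjb1 was at 20.0, 18.2, 15.99 and 19.0 CPM in the control and 12.2, 8.56, 8.63 and 15.3 CPM in the ketogenic libraries. The groups did not overlap, with a log2 change of -0.71 ± 0.16 (SE) and an edgeR adjusted p of 0.019. It no longer passed when control replicate 1, control replicate 2 or ketogenic replicate 2 was left out (edgeR, limma or DESeq2 adjusted p from 0.000631 to 0.09 over 20 alternatives). The oligodendrocyte marker level differed by -0.06 between diets, with ketogenic libraries from 7.23 to 7.68 and control libraries from 7.42 to 7.52 in mean log2 CPM.

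**Figure D4:**
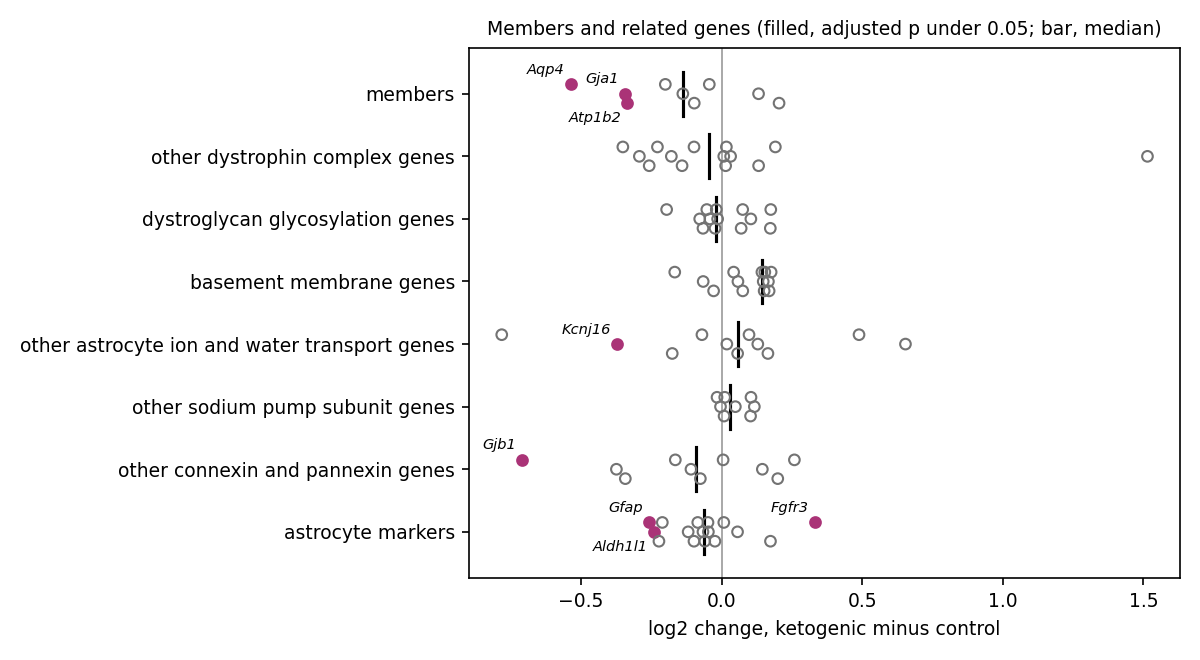
Log2 change between ketogenic and control libraries of the members, of the 6 related lists and of the astrocyte markers, 1 point a gene (filled and named, adjusted p under 0.05 in edgeR), with the median of each list as a bar. Most related genes lie near 0, and Kcnj16 and Gjb1 are the filled points among them.

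Among 9885 other genes with a mean of at least 10 CPM, the 5 whose log2 CPM followed Aqp4 most closely over the 8 libraries were Gprin3, Rdx, Mrpl39, G3bp2 and Mindy2, with a Pearson correlation of 0.975 to 0.969. Since Aqp4 is lower in ketogenic libraries, genes that separate the diets in the same direction score high. For deviations from each diet's own mean the correlation was 0.78, 0.759, 0.856, 0.751 and 0.718. Those deviations are part of what the 5 genes were picked on, so high values follow in part from the choice. Gprin3 went from 44.6 ± 2.97 to 32.5 ± 1.96 CPM (SD, n = 4 each), close in size to Aqp4 at 1.37-fold lower. Rdx, which encodes radixin, a linker of membrane and actin, was 1.14-fold and Mindy2 1.16-fold lower. Mindy2, a deubiquitinase gene, Gprin3 and Rdx passed, and Mrpl39 and G3bp2, at 1.15-fold and 1.10-fold lower, did not (edgeR adjusted p = 0.0243, 0.00503, 0.037, 0.0641 and 0.0838, in that order). Rdx no longer passed when any library but control replicate 4 was left out, and Mindy2 when control replicate 1, 2 or 3 or ketogenic replicate 2 was. Neither passed with limma, without ketogenic replicates 3 and 4 together, or with the length trend removed. With the trends on GC content and length removed the log2 change went from -0.19 to -0.12 for Rdx, from -0.22 to -0.12 for Mindy2 and from -0.14 to -0.05 for G3bp2 (edgeR adjusted p = 0.24, 0.253 and 0.661).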

How the data were processed

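For 8 brain libraries the authors deposited raw counts by gene symbol and, in a second table, FPKM. Per the labels' protocols, libraries were made from 1.3 ug of total RNA with a messenger RNA kit. The submitters' processing notes name the builds GRCm38 and mm10; no aligner, counter, strand setting or annotation is given in the sources used here. Each deposited FPKM is the count over the library total and over a length that is fixed for the gene (largest relative spread of that length 1.79e-07).

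The members and all gene lists were chosen with earlier results of these data known. The test was edgeR 4.0.16 (R 4.3.3) on the deposited counts with TMM factors, its filter on low counts (3088 genes left out) and its quasi-likelihood F test, with an intercept and the diet. P-values were adjusted over all 14895 genes by the Benjamini-Hochberg method. The SE is the size of the log2 change divided by the square root of F. Marker lists were summarised as mean log2 CPM (prior count 2) and compared by exact two-sided permutation. Named genes were the members, the related genes that passed (or the 2 of smallest p in a list with none), Gfap, Aldh1l1, Slc1a2, Slc1a3 and Kcnj10, and the 5 most like Aqp4. Some genes that this rule names are not reported here. Alternatives used limma 3.58.1, DESeq2 1.42.0, other scalings and filters, a replicate block and left-out libraries. Removing GC content and length trends together (loess, span 0.3) was an alternative chosen after seeing the data. The scripts were tested on simulated data.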

Additional observations from a re-analysis of the deposited data

Results flagged for a closer look

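Dixon's ratio was applied to 38 groups of 4 libraries (9 members and 10 marker lists in each diet), and 4 held a library far from the other 3, where chance gives about 1 in 20. Mlc1 in control replicate 3 was at 127.0 CPM, with the other control libraries at 110.2 to 111.8 CPM. Atp1b2 in ketogenic replicate 4 was at 775.7 CPM, with the others at 702.3 to 705.5 CPM. The mean log2 CPM of astrocyte markers in ketogenic replicate 4 was 7.41, against 7.29 to 7.31 in the others. That of fibroblast and meningeal markers in ketogenic replicate 3 was 3.49, against 3.81 to 3.82.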

How the results depend on the processing

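All 9 members kept their direction under all 20 alternatives, and Aqp4 also passed under each, with a log2 change from -0.59 to -0.42. Atp1b2 passed under all but limma on unfiltered log2(FPKM + 1), where 1 member passed. With the replicate block 3 members passed, 1528 genes in all and 4 of the related genes. Same-numbered libraries correlated by 0.02 to 0.08 in their deviations from the group means, and 4 of 8 libraries correlated best with their own number. These values do not settle whether the numbers pair mice. The labels state no pairing, so the main fit had no block. Genes past the threshold numbered 1774 with DESeq2, 489 and 560 with limma on log2(FPKM + 1) and log2(FPKM + 0.1), 64 with limma on unfiltered log2(FPKM + 1), 308 with GC content and length trends removed, 90 without ketogenic replicates 3 and 4 together, and 146 to 1900 with 1 library left out. Related genes past it were 6 with DESeq2, 1 and 0 with limma on log2(FPKM + 1) with and without the filter, 1 without ketogenic replicates 3 and 4 together, 1 with both trends removed, and 0 to 4 with 1 library left out. The direction of 2 genes that did not pass reversed: Slc1a3 was at 0.013 with both trends removed, and Fxyd7 at -0.0092 with the length trend and -0.067 with both removed. Slc1a2, which did not pass, went from -0.12 to -0.05 with both trends removed. The oligodendrocyte marker difference ran from -0.15 to 0.0051 with 1 library left out, the last without ketogenic replicate 3. Except where an alternative tests fewer libraries, the cause was not tested.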
